A study of Mus musculus with 14 samples.

Results

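The thymic chemokine system was taken as 9 genes, the ligands Ccl25, Cxcl12, Ccl19, Ccl17 and Ccl22 and the receptors Ccr9, Cxcr4, Ccr7 and Ccr4, and each was read from every probe set annotated to that gene alone by its current symbol or an alias. Of the 22690 probe sets on the array, 11 belonged to 8 of these genes. The only probe set annotated to Ccl19 carried 9 other genes as well, so Ccl19 has no value here. The probe set of Ccr4 had a mean signal of 41.2, under the 44.5 that marked the lowest probe set tested, which left 10 probe sets of 7 genes for testing.

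Thymuses came from inbred female C57BL/6 mice whose ovaries were removed at day 26 of age and which were kept on a phytoestrogen-free AIN-93G diet, with treatment starting on day 30. The starting stock was 21 days old in all groups. Estradiol mice received a daily dose of 125 ng 17β-estradiol, an ovarian steroid hormone, injected under the skin in corn oil (0.02 ml). Genistein mice were fed genistein, an isoflavone of soy that can bind estrogen receptors, at 1500 ppm of the diet. Each treatment was sampled on days 2, 3 and 6, and control mice were taken untreated on day 0. Each of the 7 groups had 2 Affymetrix arrays, and each array held RNA pooled from 3 mice, so 14 arrays were compared and their number limits the precision. All groups lacked ovaries, the oil injections were listed for estradiol mice only, and untreated mice of later days were not analysed here, so hormone, injection and time since day 0 cannot be told apart in a comparison with control, nor hormone and injection in a comparison with genistein.

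Chemokines are small secreted proteins that guide cells through G protein-coupled receptors. In the mouse thymus Ccl25 is made largely by epithelial cells and acts through Ccr9, which is abundant on double-positive thymocytes (CD4+ CD8+). Cxcl12 from cortical stroma acts through Cxcr4, which holds immature thymocytes in the cortex. Ccl19, with Ccl21, acts through Ccr7 and draws positively selected thymocytes into the medulla, and Ccl17 and Ccl22 act there through Ccr4.

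Promoter sequences are shown for Ccl25, Cxcl12 and Ccr9, the members with a change that passed the test below. RefSeq promoter windows (GRCm38.p6) were found for 8 of the 9 genes, and the 250 bases before each start were searched on both strands for the consensus estrogen response element, which is GGTCA followed after any 3 bases by TGACC, and for either arm of it alone, GGTCA or TGACC. Sequences run 5′ to 3′ towards the start, and capitals mark single arms.
Ccl25, first start, chr8:4324960-4325209 (+ strand): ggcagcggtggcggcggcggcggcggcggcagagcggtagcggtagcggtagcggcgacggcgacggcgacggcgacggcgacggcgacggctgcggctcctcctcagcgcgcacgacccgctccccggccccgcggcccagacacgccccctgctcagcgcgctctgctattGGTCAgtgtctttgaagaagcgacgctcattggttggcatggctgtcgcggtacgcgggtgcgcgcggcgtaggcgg
Ccl25, second start, chr8:4349338-4349587 (+ strand): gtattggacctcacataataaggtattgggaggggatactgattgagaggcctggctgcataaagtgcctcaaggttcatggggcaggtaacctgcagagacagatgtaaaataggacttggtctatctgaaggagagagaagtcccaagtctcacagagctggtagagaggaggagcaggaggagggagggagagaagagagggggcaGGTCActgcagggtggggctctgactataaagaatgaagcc
Cxcl12, chr6:117168285-117168534 (+ strand): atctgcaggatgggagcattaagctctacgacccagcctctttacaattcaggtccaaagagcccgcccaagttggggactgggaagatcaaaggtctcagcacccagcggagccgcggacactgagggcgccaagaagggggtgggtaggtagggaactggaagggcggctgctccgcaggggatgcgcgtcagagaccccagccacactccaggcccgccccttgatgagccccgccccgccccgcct
Ccr9, chr9:123766961-123767210 (+ strand): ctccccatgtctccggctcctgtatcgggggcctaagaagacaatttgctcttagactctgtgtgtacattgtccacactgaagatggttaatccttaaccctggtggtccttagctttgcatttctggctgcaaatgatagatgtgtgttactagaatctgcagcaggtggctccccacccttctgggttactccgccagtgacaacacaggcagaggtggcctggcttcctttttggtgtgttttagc

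The window of each Ccl25 start held 1 such arm, which began 77 bases before the first start and 41 bases before the second. The Cxcl12 and Ccr9 windows held none. Of all 9 windows of the members, 4 held an arm, namely both of Ccl25, that of Ccl17 with 2 and that of Ccl22 with 1, against 35.2% of the 32851 windows of all genes. The whole element was in 0 member windows and in 0.0639% of all windows. These counts describe letters in short windows and say nothing of where a receptor binds.

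The deposited signals were brought to one 2%-trimmed mean before any comparison, because 11 arrays shared a value of 150.04 while 3 estradiol arrays stood higher, replicate 2 of day 2 at 223.4 and the replicates of day 3 at 300.3 and 334.6. Gapdh probe sets at the 3′ and 5′ ends, whose ratio is a sign of RNA quality, gave 1.27 for replicate 1 of estradiol day 2, 1.503 for replicate 1 of genistein day 6 and 0.867 to 1.10 for the other arrays. Markers of the labelled tissue were bright, with Rag1, a recombinase of developing lymphocytes, between 2087 and 2962 signal units on estradiol arrays, between 1917 and 2715 on genistein arrays and at 2313 and 2446 on control arrays. Log2 changes are on the scale log2(signal + 16), each comes with its limma standard error, and a probe set was called at a Benjamini-Hochberg adjusted p under 0.05 over all 13575 probe sets tested.

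**Figure D1:**
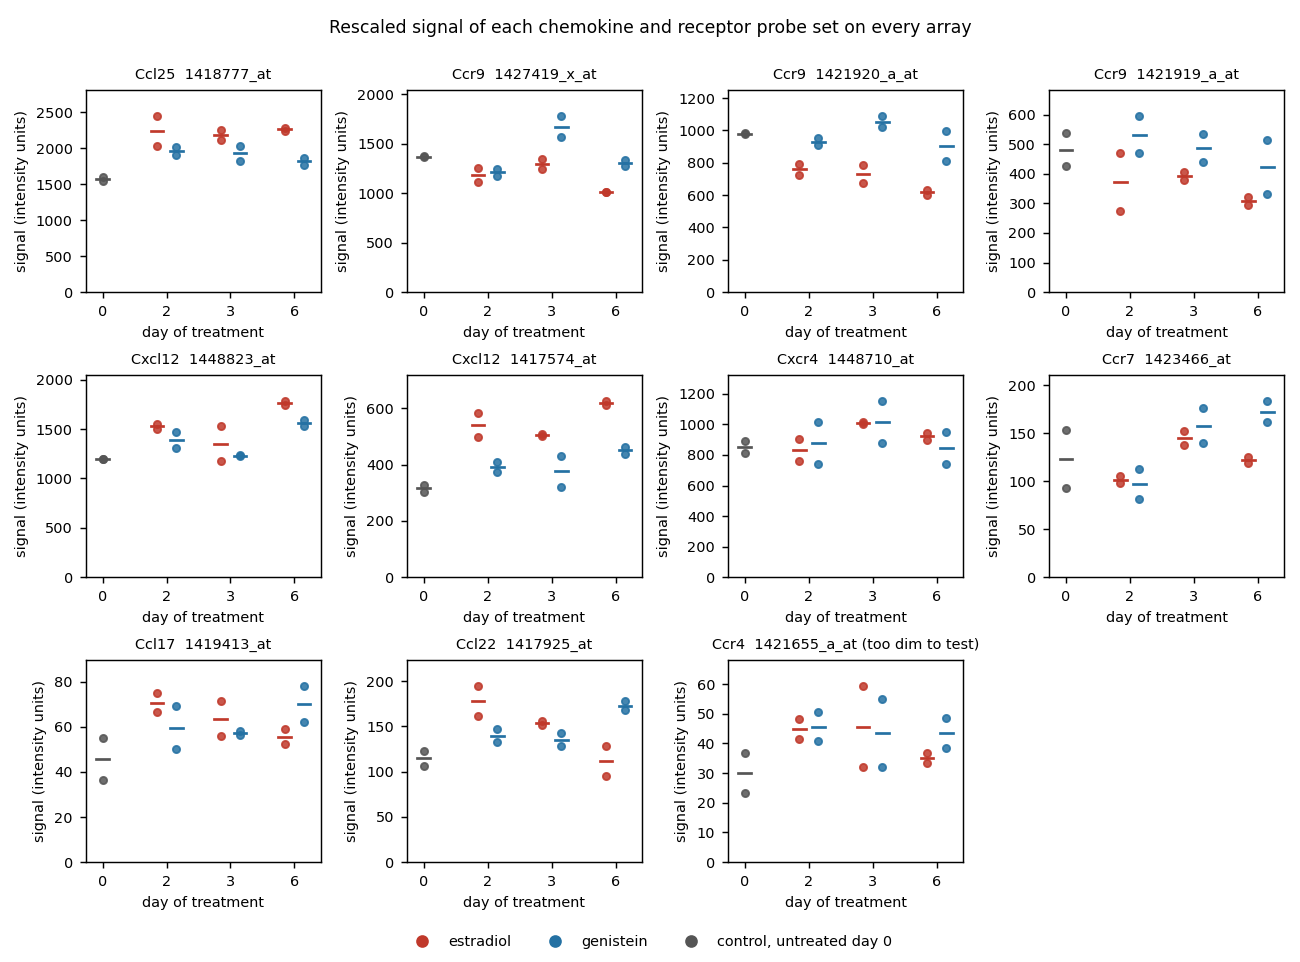
Rescaled signal (vertical axis, intensity units, from 0) by day of treatment (horizontal axis, evenly spaced) for the 11 probe sets; points are arrays, bars are group means, red is estradiol, blue genistein and grey the untreated day 0 control. All estradiol points of Ccl25 and of Cxcl12 probe set 1417574_at lie above the genistein and control points, and all estradiol points of Ccr9 probe set 1421920_a_at lie below them.

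Of all probe sets tested, 0.53% were called higher and 0.0737% lower in estradiol thymus over the mean of days. Groups that did not overlap were more common, with 8.04% of probe sets higher and 6.96% lower on all 6 estradiol arrays than on both controls, 4.49% higher and 4.19% lower on all genistein arrays than on both controls, and 0.965% higher and 0.413% lower on all estradiol arrays than on all genistein arrays.

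Ccl25, the epithelial ligand of Ccr9, was among the brightest probe sets on the array. Its signal (1418777_at) was 2443 and 2037 units on estradiol day 2, 2115 and 2249 on day 3 and 2283 and 2242 on day 6. It was 1901 and 2017 on genistein day 2, 1824 and 2036 on day 3 and 1767 and 1866 on day 6, and 1601 and 1544 in control thymus. The 3 sets of arrays did not overlap, since every estradiol array lay above every genistein array and every genistein array above both controls, although the lowest estradiol array and the highest genistein array differed by about 1 unit. Over the mean of days Ccl25 rose 1.41-fold in estradiol thymus relative to control (log2 change 0.50 ± 0.10, 95% interval 0.29 to 0.70, adjusted p = 0.0377). The change was 0.50, 0.47 and 0.52 on days 2, 3 and 6, with no day called alone (adjusted p = 0.146, 0.227 and 0.0715). In genistein thymus the change was 0.27 ± 0.10 (interval 0.06 to 0.48, adjusted p = 0.349). The difference between estradiol and genistein was 0.23 ± 0.07 (adjusted p = 0.111). Neither passed. After quantile normalization the difference between treatments was 0.35 and passed (adjusted p = 0.00999). The estradiol change on day 6 passed too, as it did without either estradiol day 2 array. The estradiol call was lost without control replicate 2, without either estradiol day 3 or either estradiol day 6 array (adjusted p = 0.0822 to 0.373), while the change stayed between 0.45 and 0.54 with any 1 array left out.

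Ccr9, the receptor of Ccl25, was read by 3 probe sets. On 1421920_a_at the signal was 795 and 725 units on estradiol day 2, 784 and 672 on day 3 and 629 and 604 on day 6. It was 909.5 and 953 on genistein day 2, 1022 and 1088 on day 3 and 810.2 and 996 on day 6, against 979.8 and 982 in control thymus. All 6 estradiol arrays lay below all 6 genistein arrays and below both controls, and genistein arrays lay on both sides of the controls. Relative to genistein, Ccr9 on this probe set fell by 0.45 ± 0.08 on the log2 scale over the mean of days (interval -0.62 to -0.28, adjusted p = 0.0119), in a comparison where 1.11% of probe sets were called higher and 0.295% lower. Relative to control it fell by 0.66 ± 0.13 on estradiol day 6 (adjusted p = 0.0439; 0.611% of probe sets were called higher and 0.0442% lower that day), while the change of -0.48 ± 0.11 over the mean of days had an adjusted p of 0.0668. The changes on days 2 and 3 were -0.36 and -0.43 (adjusted p = 0.328 and 0.313), and a change over the days of estradiol was not called (F test, adjusted p = 0.790). In genistein thymus the change was -0.03 ± 0.11 (interval -0.27 to 0.20, adjusted p = 0.938).

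The other probe sets of Ccr9 were lower on estradiol than on genistein arrays on average, a direction that turned on the values as deposited, and their arrays overlapped and were not called. The brightest, 1427419_x_at, whose ending marks probes that may bind other transcripts too, was between 1009 and 1348 units on estradiol arrays (median 1183), between 1177 and 1778 on genistein arrays (median 1308) and at 1362 and 1374 in control thymus. Its estradiol arrays all lay below both controls, its 2 lowest values were those of estradiol day 6 (1009 and 1014) and its 2 highest those of genistein day 3 (1778 and 1563). The changes were -0.25 ± 0.07 for estradiol relative to genistein (adjusted p = 0.0823) and -0.24 ± 0.10 for estradiol relative to control (adjusted p = 0.269). The dimmest, 1421919_a_at, was between 273 and 472 units on estradiol arrays (median 350.2), between 333 and 595 on genistein arrays (median 492) and at 539 and 425 in control thymus, with a change of -0.41 ± 0.14 between treatments (adjusted p = 0.154). Its lowest array in each treatment, estradiol day 2 replicate 1 at 273 and genistein day 6 replicate 1 at 333, was the array with the highest Gapdh ratio of that treatment, and with that ratio as a covariate its change in estradiol relative to control was -0.33 in place of -0.43. Its difference between treatments was then -0.58 and passed (adjusted p = 0.0180). On the values as deposited, where the median of all probe sets was shifted by 0.43 in estradiol relative to control and by 0.42 relative to genistein, the Ccr9 differences between treatments were -0.002 on 1421920_a_at, 0.200 on 1427419_x_at and 0.0293 on 1421919_a_at, so their direction is relative to a common array mean. The call on 1421920_a_at between treatments was also lost without estradiol day 3 replicate 2 (-0.41, adjusted p = 0.0622) and without estradiol day 6 replicate 2 (-0.44, adjusted p = 0.0567), and the day 6 call against control was lost after quantile normalization (adjusted p = 0.0539) and remained in 4 of the 14 fits that left out 1 array, those without an array of estradiol day 2 or of genistein day 6.

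Cxcl12, the stromal ligand of Cxcr4, had 2 probe sets. On 1417574_at the signal was 500.0 and 584 units on estradiol day 2, 508 and 500.5 on day 3 and 614 and 626 on day 6. It was 373 and 411 on genistein day 2, 431 and 321 on day 3 and 439 and 464 on day 6, against 328 and 302 in control thymus. Every estradiol array lay above every genistein array and both controls, while genistein day 3 replicate 2 lay between the controls. Over the mean of days Cxcl12 on this probe set rose 1.72-fold in estradiol thymus relative to control (log2 change 0.78 ± 0.12, interval 0.51 to 1.05, adjusted p = 0.0130), the largest change among the 10 member probe sets in that comparison. It rose 1.92-fold on day 6 (0.94 ± 0.15, adjusted p = 0.0131), and the changes on days 2 and 3 were 0.75 and 0.65 (adjusted p = 0.107 and 0.197). Relative to genistein it rose by 0.44 ± 0.09 (1.36-fold, interval 0.25 to 0.63, adjusted p = 0.0275), with differences of 0.45, 0.42 and 0.44 on days 2, 3 and 6. The change in genistein thymus relative to control was 0.34 ± 0.12 (interval 0.08 to 0.61, adjusted p = 0.360).

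The brighter Cxcl12 probe set, 1448823_at, was between 1177 and 1784 units on estradiol arrays (median 1544), between 1227 and 1592 on genistein arrays (median 1395) and at 1201 on both control arrays. Estradiol day 3 replicate 1 was the lowest of all arrays at 1177 and estradiol day 6 the highest at 1784 and 1748, so the estradiol arrays overlapped both other sets, whereas all genistein arrays lay above the controls. The changes were 0.35 ± 0.11 for estradiol (adjusted p = 0.145), 0.21 ± 0.11 for genistein (adjusted p = 0.488) and 0.14 ± 0.07 between them (adjusted p = 0.343). On estradiol day 6 it was 0.55 ± 0.13 (adjusted p = 0.0754). Both probe sets were thus higher on average in estradiol than in control thymus, but by amounts that differed and with only 1417574_at called, although 1448823_at was also called on estradiol day 6 after quantile normalization. RefSeq lists 3 transcripts of Cxcl12 and 2 of Ccr9, and which of them each probe set reads was not analysed here. The estradiol call of 1417574_at against control was lost without control replicate 2 (0.72, adjusted p = 0.219). Its day 6 call was lost without control replicate 2 or either estradiol day 6 array (adjusted p = 0.111 to 0.178). Its call between treatments held in 6 of the 14 fits that left out 1 array, with values from 0.37 to 0.51 (lost without genistein day 2 replicate 1, day 3 replicate 2 or day 6 replicate 1, estradiol day 2 replicate 2, or any estradiol day 3 or day 6 array). It was also lost with the Gapdh ratio as a covariate (0.43, adjusted p = 0.0539).

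Without the 3 arrays that had been deposited on another scale, estradiol day 3 drops out and the mean is over days 2 and 6. Then no member was called over the mean of days in either comparison, although Ccl25 (0.58, adjusted p = 0.0527) and Cxcl12 on 1417574_at (0.79, adjusted p = 0.0677) kept their size relative to control, and the day 6 call of Cxcl12 was kept (adjusted p = 0.0395).

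Cxcr4, the receptor of Cxcl12, was 758 and 902 units on estradiol day 2, 1003 and 1018 on day 3 and 946 and 899 on day 6. It was 1015 and 738 on genistein day 2, 881 and 1152 on day 3 and 739 and 951 on day 6, against 813 and 891 in control thymus. All 3 sets of arrays overlapped, and on genistein arrays replicates of day 2 differed by more than the group means did. The changes were 0.11 ± 0.15 for estradiol (interval -0.21 to 0.42), 0.08 ± 0.15 for genistein (interval -0.23 to 0.40) and 0.02 ± 0.10 between them (interval -0.20 to 0.25), with adjusted p of 0.781, 0.871 and 0.931.

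Ccr7, the receptor that leads selected thymocytes to the medulla, was 105 and 97.7 units on estradiol day 2, 137 and 153 on day 3 and 119 and 126 on day 6. It was 113 and 81.3 on genistein day 2, 139.6 and 177 on day 3 and 183 and 161 on day 6, against 153 and 92.7 in control thymus. The control arrays lay far apart and spanned all estradiol and some genistein arrays. The changes over the mean of days were 0.02 ± 0.17 for estradiol and 0.18 ± 0.17 for genistein (adjusted p = 0.968 and 0.717). Within genistein arrays those of day 2 were lowest, but a change over the days of genistein was not called (F test, unadjusted p = 0.00758, adjusted p = 0.735).

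The Ccr4 ligands Ccl22 and Ccl17, which dendritic cells and medullary epithelium make, were dimmer than Ccl25 and Cxcl12. Their mean signals were 143.6 and 60.4 units, of which only that of Ccl17 was near the lowest level tested. Ccl22 was 161 and 194 units on estradiol day 2, 155 and 151 on day 3 and 95.3 and 128 on day 6. It was 133 and 147 on genistein day 2, 128 and 142 on day 3 and 178 and 168 on day 6, against 106 and 123 in control thymus. Estradiol arrays were highest on day 2 and lowest on day 6, genistein arrays were highest on day 6, and all genistein arrays lay above both controls. The difference between treatments was 0.31, 0.17 and -0.57 on days 2, 3 and 6 (adjusted p = 0.811, 0.907 and 0.185). The interaction of treatment and day had an unadjusted p of 0.00496, the smallest among the member probe sets, and an adjusted p of 0.9999, and 0% of all probe sets were called in it. Over the mean of days Ccl22 changed by 0.30 ± 0.14 in estradiol and 0.33 ± 0.14 in genistein thymus (adjusted p = 0.327 and 0.408).

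Ccl17 was 75.0 and 66.6 units on estradiol day 2, 71.5 and 55.9 on day 3 and 52.3 and 59.0 on day 6. It was 69.3 and 50.1 on genistein day 2, 56.3 and 58.0 on day 3 and 62.3 and 78.1 on day 6, against 55.1 and 36.4 in control thymus. The groups overlapped, and the changes of 0.37 ± 0.17 in estradiol and 0.35 ± 0.17 in genistein thymus did not pass (adjusted p = 0.338 and 0.475). Ccr4 was between 31.9 and 59.3 units on estradiol arrays (median 39.2), between 32.1 and 55.1 on genistein arrays (median 44.6) and at 36.9 and 23.2 in control thymus. It was too dim to be tested, and its arrays overlapped.

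**Figure D2:**
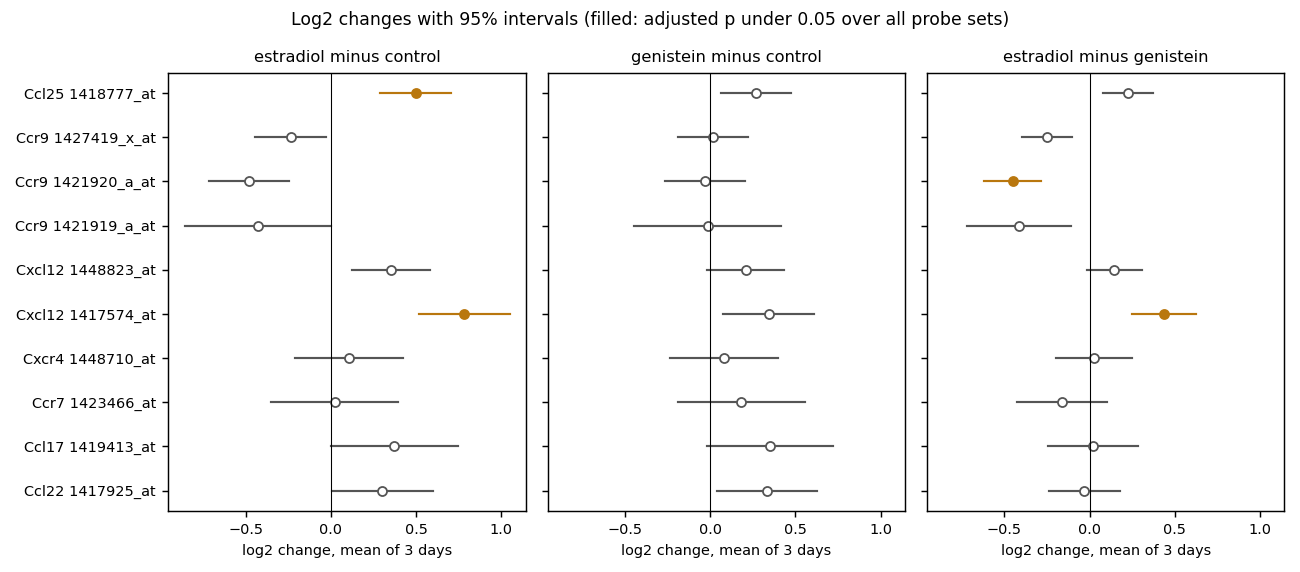
Log2 change over the mean of 3 days (horizontal axis) with 95% intervals for the 10 member probe sets tested (rows), from left to right estradiol minus control, genistein minus control and estradiol minus genistein; filled points passed an adjusted p of 0.05. Filled points stand at 0.50 for Ccl25 and 0.78 for Cxcl12 (1417574_at) on the left, at 0.44 for Cxcl12 (1417574_at) and -0.45 for Ccr9 (1421920_a_at) on the right, and nowhere in the middle.

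Of the 10 member probe sets, 2 were called higher and 0 lower in estradiol relative to control over the mean of days, against 0.53% and 0.0737% of all probe sets. On estradiol day 6, 1 was called higher and 1 lower, against 0.611% and 0.0442%. Between treatments 1 was called higher and 1 lower, against 1.11% and 0.295%. For genistein relative to control 0 were called, against 0.0368% of all probe sets, and 3 had an unadjusted p under 0.05. By limma's F tests over the days and of their interaction no member was called, where 0.0221% of all probe sets were called over the estradiol days and 0% in both others. None was called on estradiol days 2 and 3, where 0.0884% and 0.0663% of all probe sets were. None was called on genistein days 2, 3 and 6, where 0.0147%, 0.00737% and 0.00737% were, nor between treatments on days 2, 3 and 6, where 0.081%, 0.0147% and 0.265% were. The median change of the member probe sets was 0.20 in estradiol and 0.19 in genistein thymus, beside 0.00 and 0.01 over all probe sets tested, and -0.01 between treatments beside 0.00. Taking the brightest probe set of each gene, all 4 ligands measured had a positive change over the mean of days in both treatments, with estradiol and genistein set against the same 2 control arrays. By sign alone, 6 of the 7 genes tested were positive in estradiol and 7 in genistein, but some of these changes were near 0. The receptors Ccr9, Cxcr4 and Ccr7 changed by -0.24, 0.11 and 0.02 in estradiol and by 0.01, 0.08 and 0.18 in genistein. The ligands Ccl25, Cxcl12, Ccl17 and Ccl22 changed by 0.50, 0.35, 0.37 and 0.30 in estradiol and by 0.27, 0.21, 0.35 and 0.33 in genistein. Ligands as a set were not tested against receptors. Of all probe sets tested, 50.9% and 52.2% were positive.

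The ligand was set against its receptor on the same array as the difference of their log2 levels. Because the 2 probe sets bind differently, only differences between groups in this measure can be read, and a common scale factor of an array nearly cancels in it. Estradiol and genistein were compared with the same day's arrays exchanged between treatments, an exact permutation test over 216 arrangements whose smallest two-sided p is 0.00926, adjusted over 4 pairs. For Ccl25 minus Ccr9 (1427419_x_at) the difference was 0.95 and 0.86 on estradiol day 2, 0.64 and 0.84 on day 3 and 1.16 and 1.13 on day 6. It was 0.68 and 0.69 on genistein day 2, 0.04 and 0.38 on day 3 and 0.46 and 0.47 on day 6, against 0.23 and 0.17 in control thymus. On each day both estradiol arrays lay above both genistein arrays. The mean was 0.93 ± 0.20 in estradiol and 0.45 ± 0.24 in genistein thymus (SD, n = 6 each), a difference of 0.48 whose exact permutation p was the smallest that test can give (p = 0.00926, adjusted p = 0.0370). By day it was 0.22, 0.54 and 0.68 on days 2, 3 and 6. Without estradiol day 3 replicate 2 it was 0.44 (adjusted exact p = 0.0741), and without the 3 arrays deposited on another scale it was 0.47, where the smallest exact p possible is 0.0556. With the other Ccr9 probe sets, compared after seeing the data, it was 0.68 (1421920_a_at) and 0.64 (1421919_a_at).

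For Cxcl12 minus Cxcr4, with the brighter Cxcl12 probe set, the mean was 0.73 ± 0.30 in estradiol and 0.62 ± 0.33 in genistein thymus (SD, n = 6 each), and the difference of 0.12 lay within the spread (exact permutation p = 0.287, adjusted p = 0.574). With the dimmer Cxcl12 probe set, which was chosen after its values were seen, it was 0.41 (unadjusted exact permutation p = 0.00926). For the Ccr4 ligands the differences between treatments were 0.08 for Ccl17 and 0.03 for Ccl22 and did not pass (exact permutation p = 0.593 and 0.843, adjusted p = 0.790 and 0.843), and Ccr4 was dim on every array. By day Ccl22 minus Ccr4 differed by 0.33, 0.13 and -0.36 on days 2, 3 and 6, so its mean is one of opposite signs. Ccl17 minus Ccr4 differed by 0.22, 0.08 and -0.05. For both ligands the estradiol arrays lay above the genistein arrays on day 2 and below them on day 6. Single days were not tested. Ccl19 and Ccr7 could not be paired.

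**Figure D3:**
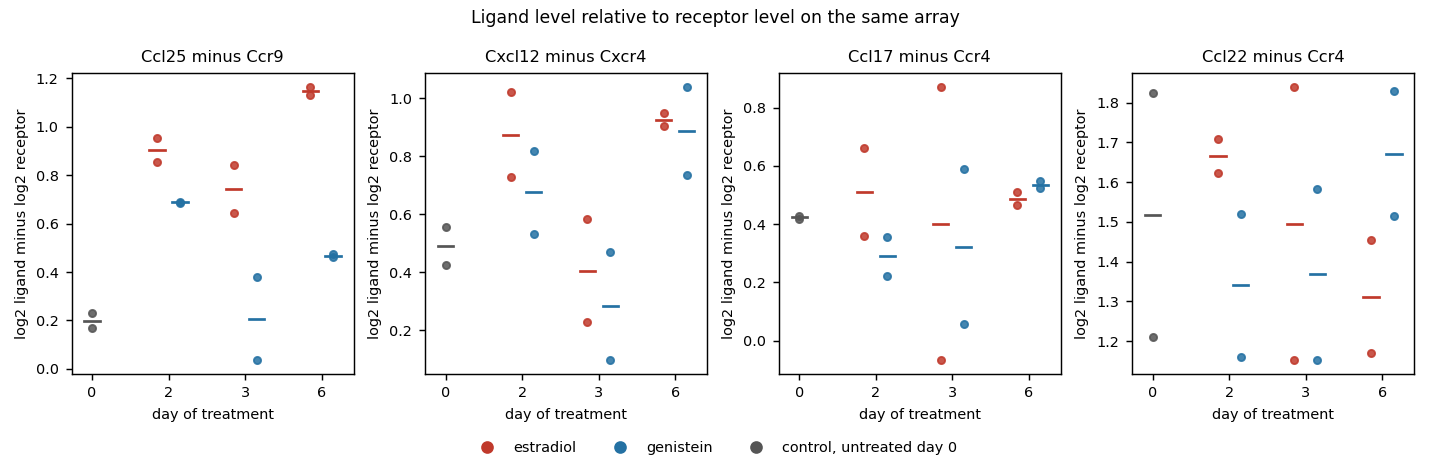
Log2 level of the ligand minus log2 level of its receptor on the same array (vertical axis, log2 units, not starting at 0) by day of treatment (horizontal axis) for 4 pairs; points are arrays, bars are group means, red is estradiol, blue genistein and grey the untreated day 0 control. For Ccl25 minus Ccr9 both estradiol points lie above both genistein points on each day, for Cxcl12 minus Cxcr4 they overlap on each day, and for both Ccr4 ligands estradiol points lie above genistein points on day 2, below them on day 6 and overlap them on day 3.

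The order of the group means differed between the members. Ccl25 was highest on estradiol days 6, 2 and 3, whose arrays overlapped, then on genistein days 2, 3 and 6, whose arrays overlapped in turn, and lowest in control thymus, so gaps between neighbouring groups lay only between the treatments and between genistein and control. Cxcl12 on 1417574_at ran from estradiol day 6, which stood clear of estradiol days 2 and 3, to genistein day 6 and then genistein days 2 and 3, with genistein day 3 overlapping the control. Ccr9 on 1421920_a_at ran from genistein day 3, above both controls, to genistein days 2 and 6, estradiol days 2 and 3 and, clear of them, estradiol day 6. For Cxcr4 and Ccl17 all neighbouring groups overlapped.

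The tested genes whose centred log2 levels lay closest to those of each called member over the 14 arrays were found by the root mean square difference. For Ccl25 these were Pms2, Ctsl and Pard6g, at 0.0897, 0.0957 and 0.0983, where the median gene lay at 0.276. For Ccr9 (1421920_a_at) they were Mrps9, Mrpl58 and Snrpe, at 0.135, 0.137 and 0.137 with a median of 0.333, and for Cxcl12 (1417574_at) they were Vcam1, Isl1 and Htra1, at 0.117, 0.121 and 0.123 with a median of 0.377. Since these genes were chosen for levels like those of a called member on the same arrays, their own changes follow from that choice and are not given as results.

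Other genes of the chemokine system did not pass the test, which few probe sets of any kind passed. Of all probe sets tested, 0.53% were called higher and 0.0737% lower in estradiol over the mean of days, and 0.0368% in genistein. Between treatments 1.11% were called higher and 0.295% lower, so 0 calls do not set such short lists apart. Of 35 other ligands 15 were bright enough, and 0 were called over the mean of days in estradiol, in genistein or between them, with median changes of 0.19, 0.19 and 0.02. Ccl5, which draws activated T cells, was between 315 and 401 units on estradiol arrays, between 223 and 360.1 on genistein arrays and at 233 and 256 on control arrays, with a change of 0.50 ± 0.11 in estradiol (adjusted p = 0.0657), and Cxcl10, a ligand of Cxcr3, changed by -0.58 ± 0.15 (adjusted p = 0.105), both chosen after their values were seen. Ccl21a, the other main Ccr7 ligand, had a probe set shared with other genes only. Of 20 other receptors 5 were tested and 0 called, with Cxcr3, the receptor of Cxcl9 and Cxcl10, at -0.16 ± 0.20 in estradiol and the scavenger receptor Ackr4, which binds Ccl25, Ccl19 and Ccl21, too dim. Of 38 genes of receptor signalling and migration 34 were tested and 0 called. Among them S1pr1, the receptor by which mature thymocytes leave, changed by 0.19 ± 0.16 in estradiol, and Dpp4, a protease that trims chemokines, by 0.15 ± 0.12 in estradiol and by 0.28 ± 0.09 between treatments (adjusted p = 0.628, 0.598 and 0.117).

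Markers of the cells that make or answer these chemokines were followed beside them. In whole tissue fewer cells of a type and less RNA per cell cannot be told apart. Beside Ccl25, the 11 markers of cortical epithelium measured summed to between 10485 and 12584 units on estradiol arrays, between 9065 and 10047 on genistein arrays and to 8460 and 8520 on control arrays. Of them 3 were called higher in estradiol relative to control, with 10 of 11 changes positive and a median of 0.37, and 4 were called higher between treatments, against 0.621% and 1.14% of all genes by their brightest probe set. The thymus-specific protease Prss16 changed by 0.47 ± 0.10, the transcription factor Pax1 by 0.87 ± 0.16 and the peptidase Enpep by 0.89 ± 0.15 (adjusted p = 0.0497, 0.0253 and 0.0182), while Foxn1, the epithelial master regulator, changed by 0.10 ± 0.21 (adjusted p = 0.863). Of 11 markers of medullary epithelium 1 was called, the epithelial stem cell factor Trp63 at 0.86 ± 0.14 (adjusted p = 0.0203), and their sum was between 1322 and 1517 on estradiol arrays, between 1140 and 1406 on genistein arrays and 949.9 and 1107 on control arrays. The part of the epithelial markers in the Ccl25 result was not tested.

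Beside Cxcl12, the 10 markers of mesenchyme with a probe set, of which 8 were tested, summed to between 2074 and 2525 units on estradiol arrays, between 1478 and 1734 on genistein arrays and to 1339 and 1727 on control arrays. Relative to control 0 of 8 were called, with all 8 changes positive and a median of 0.53. Relative to genistein 2 were called, the matrix proteoglycan Dcn at 0.56 ± 0.12 and Igfbp7 at 0.88 ± 0.13 (adjusted p = 0.0445 and 0.00392). Macrophage markers summed to between 3258 and 3783 on estradiol arrays, between 2456 and 3268 on genistein arrays and to 2145 and 2216 on control arrays. Of 10 tested, 4 were called higher in estradiol relative to control and 3 relative to genistein. Adipocyte markers summed to between 1429 and 2332, between 905 and 1417 and to 1048 and 1050.4 on the estradiol, genistein and control arrays. Of 5 tested, 2 were called higher in estradiol relative to control and 3 relative to genistein. Over all genes by their brightest probe set, 0.621% were called higher in estradiol relative to control and 1.14% relative to genistein. Endothelial markers summed to between 667 and 830.1 on estradiol arrays, between 598 and 768 on genistein arrays and to 634 and 712 on control arrays, with 0 of 7 called. The part of these cells in the Cxcl12 result was not tested.

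Beside Ccr9, the 9 markers of double-positive thymocytes summed to between 10171 and 12008 units on estradiol arrays, between 10416 and 13180.4 on genistein arrays and to 11247 and 11801 on control arrays, and the sets overlapped. Relative to control 0 of 9 were called in estradiol thymus, with a median of -0.06, and relative to genistein 1 was called lower on the common scale, the CD8 beta chain Cd8b1 (-0.28 ± 0.06, adjusted p = 0.0345). Of all probe sets tested, 0.295% were called lower in that comparison. The markers of double-negative thymocytes (10 tested) and of mature single-positive thymocytes (10 tested) had 0 calls, with medians of 0.32 and 0.17 in estradiol relative to control. Double-negative markers summed to between 2164 and 2704 units on estradiol arrays, between 2002 and 2125 on genistein arrays and to 1765 and 1935 on control arrays, without overlap. All 10 of their changes were positive in estradiol relative to control and 9 relative to genistein. Single-positive sums overlapped, at 3905 to 4551, 3567 to 4751 and 3957 and 4010 in the same order. Dendritic cell markers, beside Ccl17 and Ccl22, had 0 calls among 10, a median of 0.30 and sums of 1663 to 1908 on estradiol arrays, 1457 to 1775 on genistein arrays and 1418 and 1461 on control arrays, and markers of B cells and lymph node had 0 calls among 9 and a median of 0.01. The part of thymocyte numbers in the Ccr9 result was not tested.

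**Figure D4:**
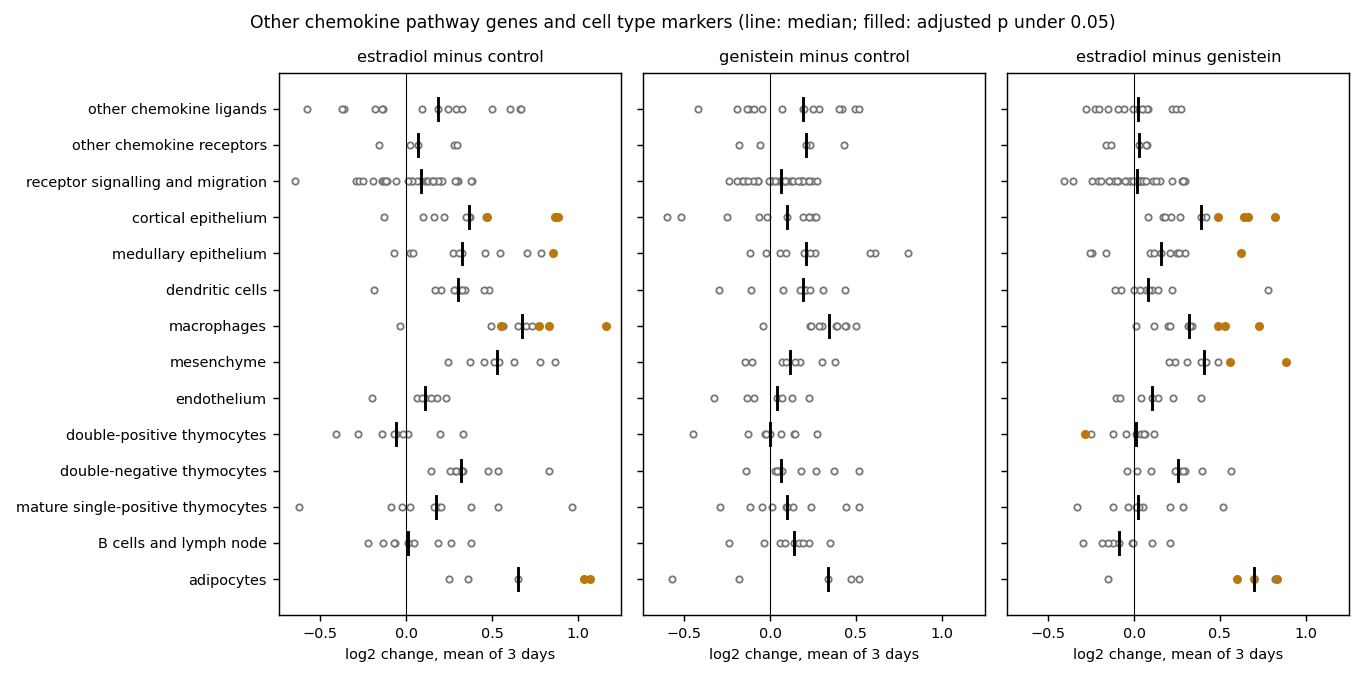
Log2 change over the mean of 3 days (horizontal axis) of each tested gene (points) in 3 pathway lists and 11 marker lists (rows), with the list median as a line and filled points for an adjusted p under 0.05; the panels are estradiol minus control, genistein minus control and estradiol minus genistein. The 3 pathway lists hold no filled point, and in the first panel filled points lie in cortical epithelium (3), medullary epithelium (1), macrophages (4) and adipocytes (2).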

How the data were processed

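The deposited values were signal intensities from Affymetrix MAS5 5.0, per the submitters' processing notes, and groups, days, doses and pools are per the labels. The authors' detection calls and image files were not analysed here. Each of the 14 arrays was scaled to a 2%-trimmed mean of 150.04, since 3 arrays were deposited on another scale for a reason not given in the sources used here. Without the 64 controls, values became log2(signal + 16), and the 40% with the lowest means, taken blind to group, were dropped, which left 13575 probe sets for 8214 genes. Of all probe sets 20393 carried 1 symbol, 691 several and 1606 none, and 20364 matched the current gene table. Group means were fitted with limma 3.58.1 (R 4.3.3; 7 residual degrees of freedom, 13.74 after moderation), eBayes followed the intensity trend, p-values were adjusted by Benjamini-Hochberg in each comparison, and ± is its SE unless called SD. Fold changes of dim probe sets are understated by the pseudocount. Pairs were tested by exact permutation in python 3.11.15, and the procedure was tested on simulated data. The labels call the pools of each group biologically independent, so p-values speak of pools within 1 study. Replicates were most alike on estradiol days 3 and 6, with a median SD of 0.0842 in each, against 0.146 to 0.162 in the other groups. The fit shares 1 spread over all groups, so these pairs enter the SE of every comparison, and their part in the calls was not tested. Members and lists were chosen with earlier results of these data known. Members were named with all probe sets, pathway genes when called (at most 6 a list) with Ccl21a, Cxcr3, S1pr1, Dpp4 and Ackr4 always looked up, and nearest genes as the 3 closest. Alternatives changed the pseudocount, filter, normalization, trend, block, samples and covariate. Ccr7 has no promoter window here, and plots were made in matplotlib 3.10.9 (python 3.11.15).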

Additional observations from a re-analysis of the deposited data

Results flagged for a closer look

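Estradiol and genistein thymus differed by the test of the difference itself for 2 member probe sets and 1 ligand-receptor pair. Oil injections were listed for estradiol mice only, so hormone and injection cannot be told apart in these differences. Over the mean of days Ccr9 on 1421920_a_at was lower in estradiol than in genistein thymus by a log2 difference of -0.450 (limma adjusted p = 0.0119), and all 6 estradiol arrays lay below all 6 genistein arrays. Cxcl12 on 1417574_at was higher in estradiol than in genistein thymus by 0.439 (limma adjusted p = 0.0275), with all 6 estradiol arrays above all 6 genistein arrays. Ccl25 minus Ccr9 (1427419_x_at) was higher in estradiol than in genistein thymus by 0.478 (exact permutation p = 0.00926, adjusted p = 0.0370), with both estradiol arrays above both genistein arrays on each of the 3 days. The other Ccr9 and Cxcl12 probe sets were not called between the treatments (adjusted p = 0.0823, 0.154 and 0.343). The calls depended on which arrays were kept, and the Ccr9 call also on the common scale. On the values as deposited the difference on 1421920_a_at was -0.002.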

How the results depend on the processing

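Where a value changed with a setting, the cause was not tested unless a sentence gives it. The number of member probe sets called in estradiol relative to control over the mean of days was 2, and became 1 with no filter, median centring, no trend, the replicate block or only the groups compared, 6 with the values as deposited and 0 without the 3 arrays on another scale or with that scale as a block (range 0 to 3 with 1 array left out). The scale block also leaves out estradiol day 3, so it takes up only estradiol day 2 replicate 2. It therefore gives the same changes as leaving out the 3 arrays and is no separate check. On estradiol day 6 it was 2, and became 1 with no filter, median centring, no trend, the replicate block, without the 3 arrays or with scale as a block, 0 as deposited or with only the groups compared, and 3 after quantile normalization, which added Ccl25 and Cxcl12 1448823_at and dropped Ccr9 (range 0 to 3). Between treatments it was 2, and became 1 with median centring, 3 after quantile normalization (Ccl25 added), 6 as deposited and 0 without the 3 arrays or with scale as a block (range 0 to 2); with the Gapdh ratio as a covariate it stayed 2, with Ccr9 1421919_a_at gained and Cxcl12 1417574_at lost. On estradiol day 2 it was 0, with a range of 0 to 1 with 1 array left out on the common scale, and became 2 as deposited, where it was also 10 on estradiol day 3 and 10 between treatments on day 3, where the construction moves the median of all probe sets by 1.01. Among all probe sets, the deposited values gave 4298 calls in estradiol relative to control over the mean of days and 9262 between treatments. They gave 92 calls on estradiol day 2, 12809 on estradiol day 3 and 13034 between treatments on day 3. The member counts as deposited are therefore not particular to the members. Replicate numbers did not pair the arrays, with 5 of 21 pairs of groups correlated above 0.1 (-0.256 to 0.351, median -0.00631), and the block dropped the Ccl25 call (adjusted p = 0.0510) and the Ccr9 day 6 call (adjusted p = 0.0637).

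Values that changed sign were all uncalled unless stated. Quantile normalization gave -0.0118 for Ccr7 in estradiol, 0.0139 for Ccr9 1421919_a_at and -0.0236 for 1427419_x_at in genistein; median centring gave -0.0222 for Ccr7 in estradiol and -0.0170 for 1427419_x_at in genistein. As deposited, Ccr9 in estradiol was 0.0146 (1421919_a_at) and 0.214 (1427419_x_at), and between treatments Ccl22 was 0.393 (called), Ccr7 0.257, and Ccr9 0.0293 and 0.200 on the same probe sets. Without the 3 arrays, and with scale as a block, Ccr7 in estradiol was -0.0676 and Cxcr4 -0.0249, or -0.0263 between treatments. With the Gapdh ratio as a covariate Ccr9 in genistein was 0.252, 0.00690 and -0.0127 (1421919_a_at, 1421920_a_at, 1427419_x_at) and Cxcr4 between treatments -0.0732. With 1 array left out, Ccr7 ranged from -0.298 to 0.341 in estradiol and -0.137 to 0.502 in genistein, Ccr9 in genistein from -0.181 to 0.151, -0.0809 to 0.0169 and -0.0163 to 0.0450 in the same order, and between treatments Ccl22 ranged from -0.0946 to 0.0306, Ccl17 from -0.0407 to 0.0819 and Cxcr4 from -0.0506 to 0.0998. Of the pairs, without the 3 arrays Ccl25 minus Ccr9 was 0.474 (adjusted exact p = 0.222) and Ccl22 minus Ccr4 -0.0383. With 1 treated array left out, chosen after seeing the data, they ranged from 0.421 to 0.535 for Ccl25 minus Ccr9, -0.0725 to 0.240 for Ccl17 minus Ccr4 and -0.0834 to 0.146 for Ccl22 minus Ccr4, and Cxcl12 minus Cxcr4 was 0.414 with the other Cxcl12 probe set.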
